A study of Mus musculus with 2 samples.

Results

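The cell cycle genes described here are the D-, E-, A- and B-type cyclins Ccnd1, Ccnd2, Ccnd3, Ccne1, Ccne2, Ccna2, Ccnb1 and Ccnb2 and the inhibitor genes Cdkn1a and Cdkn1b. They were chosen by name, through the array annotation, as probe sets assigned to 1 of these genes alone. Of the 10 genes, 8 had such a probe set, with 18 probe sets in all, out of 10313 genes with 15273 singly named probe sets. Ccnb1 and Ccnb2, the B-type cyclins of mitotic entry, had none and were not measured here. The series holds 2 samples of mouse embryonic stem cells, both of the line 46C, a reporter line with green fluorescent protein inserted at the neural gene Sox1. 1 sample overexpressed lincU, a long noncoding RNA, and 1 was the control. Both grew on feeder cells in 15% serum with leukaemia inhibitory factor (LIF) at 1000 U/ml, and the feeder was taken off before RNA isolation. The labels give neither the means of overexpression nor what the control cells carried, nor whether either culture was 1 clone.

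Cyclins are the regulatory partners of cyclin-dependent kinases (CDKs). D-type cyclins bind CDK4 and CDK6 and link growth signals to phosphorylation of the retinoblastoma proteins, E-type cyclins bind CDK2 at entry into S phase, cyclin A2 acts through S phase and into G2, and B-type cyclins drive mitosis with CDK1. The inhibitors p21 (Cdkn1a) and p27 (Cdkn1b) bind these complexes, and p21 is a classic target of p53. Mouse embryonic stem cells are known for a short G1 phase, with CDK2 activity that varies little through the cycle and low levels of the inhibitors. ERK signalling, the subject named in the series title, is a known inducer of Ccnd1 in many cell types.

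Each group had 1 array, so every value below describes 2 arrays, with no replicate, test or p-value. Values are log2 signals as deposited, and a difference is the overexpression array minus the control array. The median log2 signal of named probe sets was 7.90 on the overexpression array and 7.96 on the control array. A gene is called bright if its higher array was at or above that array's median, which held for 5609 genes, whose median difference was 0.00. Between bright probe sets of the same gene, in 1732 genes, the difference varied with an SD of 0.23, a measure that holds no variation between cultures. With these genes in 4 groups by signal, this SD was 0.16 in the brightest group and 0.32 in the dimmest. The 3′ minus 5′ log2 signal of the control probe sets of beta-actin was 0.50 on the overexpression array and 0.45 on the control array, and that of Gapdh was -0.32 on the overexpression array and -0.31 on the control array. Of 12 embryonic stem cell markers, 11 were measured and all 11 were bright on the 2 arrays, including Pou5f1 at 13.34 on the overexpression array and 13.55 on the control array.

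In the lincU-overexpressing cells Ccnd2 was the member that differed most, 1.72-fold higher, while Ccnd1, Ccnd3, Ccne1, Ccne2, Cdkn1a and Cdkn1b had lower signals and Ccna2 a slightly higher one. All 8 measured members were bright. Of these 8, 2 were higher, beside 50.2% of all bright genes, and 6 were lower. The members' median difference was -0.18, beside 0.00 for all bright genes. Ccnd2 was the only member at least 1.5-fold higher, beside 4.65% of all bright genes, and no member was at least 1.5-fold lower on its brightest probe set, beside 6.69%. Cdkn1b passed 1.5-fold lower with its 2 probe sets averaged, at -0.63, where 1 of the 2 was dim and entered as a bound. It also passed with the median of its chromosome 6 stretch subtracted, at -0.86. That stretch was picked because its genes were higher together, so the subtraction lowers its members whatever their own difference. Counting both directions, the share past 1.5-fold was 11.3% of bright genes, so 1 of 8 members is close to that background. No member was past 2-fold on its brightest probe set, beside 2.83% of bright genes.

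**Figure D1:**
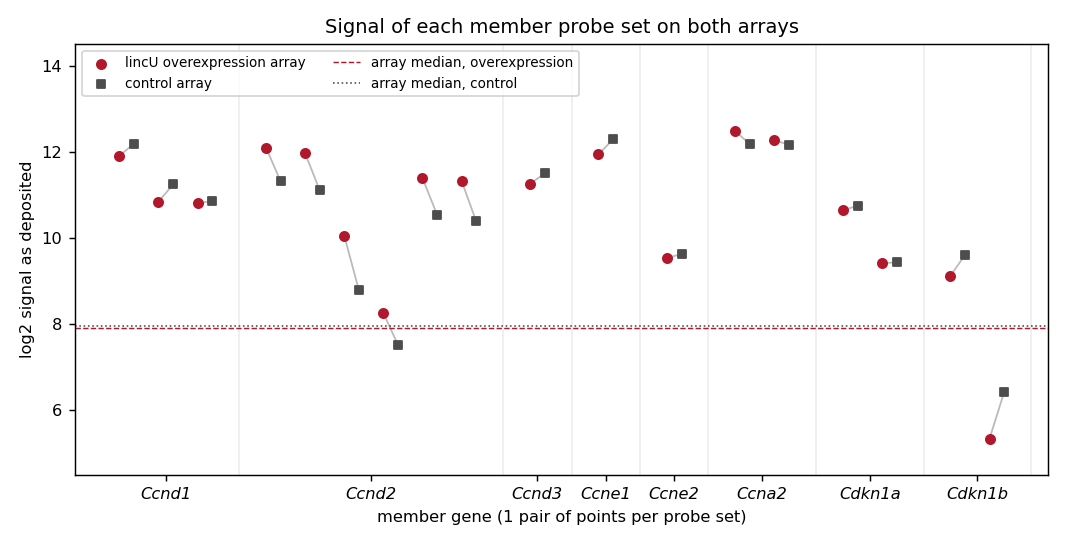
Log2 signal as deposited (vertical axis) of each probe set of the 8 measured members, with the lincU overexpression array as red circles and the control array as grey squares. A line joins the 2 arrays for 1 probe set, and the horizontal lines mark the array medians of 7.90 and 7.96. All 6 Ccnd2 pairs slope down to the control array, and both Cdkn1b pairs slope up to it.

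Ccnd2 (gene ID 12444, chromosome 6), which encodes cyclin D2, was read by 6 probe sets, and all 6 were higher in the overexpressing cells. Its brightest probe set, 1434745_at, stood at 12.09 on the overexpression array and 11.31 on the control array, a difference of 0.78. Probe set 1416122_at stood at 11.96 in overexpressing cells and 11.10 in control cells. Both of these bright probe sets differed by more than the SD of 0.23 between probe sets, a spread that holds no variation between cultures. Probe set 1430127_a_at stood at 11.39 in overexpressing cells and 10.54 in control cells, and 1448229_s_at at 11.32 in overexpressing cells and 10.38 in control cells. The largest gap was that of 1416123_at, at 10.05 in overexpressing cells and 8.78 in control cells, a difference of 1.27 or 2.41-fold. The dimmest, 1416124_at, stood at 8.25 in overexpressing cells and 7.52 in control cells, a difference of 0.73 or 1.66-fold. Its control value lies under that array's median of 7.96, so it was bright only through the overexpression array. The 6 probe sets averaged 0.91 ± 0.19 (SD over probe sets, which are not replicates). All 6 were thus past 1.5-fold. Of the 1732 genes with at least 2 bright probe sets, 31 had all of them at least 1.5-fold higher, or 1.79%. A probe set counts as bright by its higher array, so this count can take in probe sets bright on the overexpression array alone. Of these 31 genes 21 lay on chromosome 14, where earlier analysis of these arrays found a long stretch of higher signals, and 4, Ccnd2 among them, lay in the chromosome 6 stretch described below. On the brightest probe set, 2.53% of bright genes were as high as Ccnd2 or higher.

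The other D-type cyclins were slightly lower. Ccnd1 (gene ID 12443, chromosome 7) encodes cyclin D1. Its brightest probe set, 1417420_at, stood at 11.90 on the overexpression array and 12.19 on the control array, a difference of -0.28. Its other probe sets differed by -0.40 for 1417419_at and by -0.06 for 1448698_at. The 3 probe sets pointed the same way, with an SD of 0.17 between them. Ccnd3 (gene ID 12445, chromosome 17), which encodes cyclin D3, had 1 probe set, at 11.25 in overexpressing cells and 11.50 in control cells, a difference of -0.25. Set against its paralogues, the Ccnd2 difference was larger by 1.07 than that of Ccnd1 and by 1.03 than that of Ccnd3, on the log2 scale. Ccnd1 and Ccnd3 differed from each other by -0.04 in this respect, less than the spread between probe sets. Signals of different probe sets depend on their own binding strength, so no order of D-type cyclin levels within an array is given.

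Among the S phase cyclins, Ccne1 was lower and Ccna2 higher, both by less than 1.5-fold. Ccne1 (gene ID 12447, chromosome 7), which encodes cyclin E1, stood at 11.94 on the overexpression array and 12.29 on the control array on its only probe set, a difference of -0.35. Of all bright genes, 26.7% differed by as much or more in either direction. Ccne2 (gene ID 12448, chromosome 4), for cyclin E2, stood at 9.53 in overexpressing cells and 9.63 in control cells, a difference of -0.10 that is under the SD between probe sets. Ccna2 (gene ID 12428, chromosome 3), for cyclin A2, had a difference of 0.31 on 1417911_at, at 12.48 in overexpressing cells and 12.17 in control cells. On its second probe set, 1417910_at, the signal was 12.26 in overexpressing cells and 12.16 in control cells, a difference of 0.10. The sign of the Ccna2 difference was the same on both probe sets, and 1 of them was within the SD.

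The inhibitor genes were both lower, Cdkn1b by more. Cdkn1b (gene ID 12576, chromosome 6) encodes p27. Its brightest probe set, 1434045_at, stood at 9.12 on the overexpression array and 9.60 on the control array, a difference of -0.49 or 1.40-fold. The second, 1419497_at, was dim, at 5.34 in overexpressing cells and 6.42 in control cells. The overexpression value lies under the floor of 5.65 used for low signals, the 25th percentile of that array, and against the floor the difference was -0.77, a bound. Both probe sets were lower in the overexpressing cells. Cdkn1a (gene ID 12575, chromosome 17), for p21, stood at 10.63 in overexpressing cells and 10.75 in control cells on 1424638_at, a difference of -0.12. On 1421679_a_at the signal was 9.41 in overexpressing cells and 9.43 in control cells. Neither Cdkn1a probe set differed by more than the SD between probe sets. The difference of Cdkn1b was below that of Cdkn1a by 0.37 on the log2 scale, taken as -0.49 and -0.12 on their brightest probe sets.

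**Figure D2:**
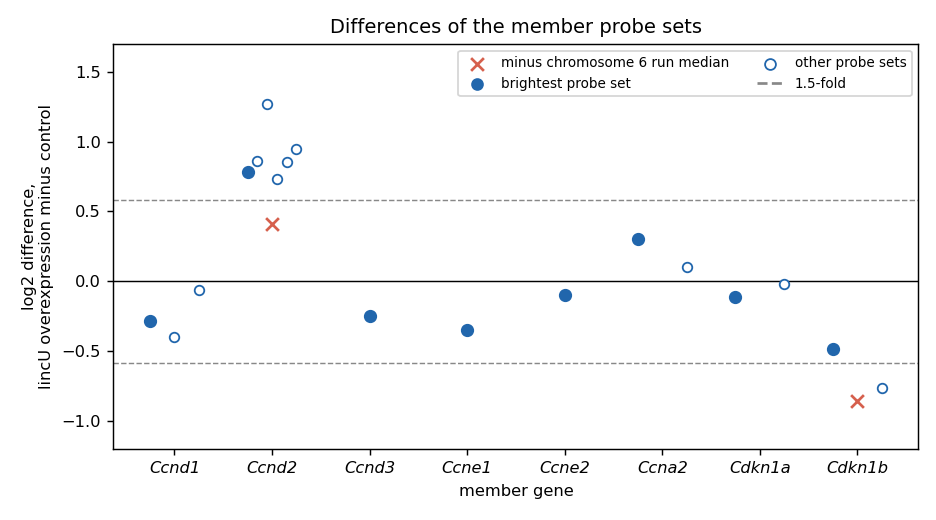
Log2 difference, lincU overexpression minus control (vertical axis), of each member probe set. Filled circles are the brightest probe set of a gene, open circles the others, dashed lines 1.5-fold, and crosses Ccnd2 and Cdkn1b with the median of their chromosome 6 stretch subtracted. The 6 Ccnd2 circles lie between 0.73 and 1.27, and the Ccnd2 cross lies inside the dashed lines at 0.41.

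Upstream sequence is given for the members that were lower in the overexpressing cells and differed most, Cdkn1b and Ccne1, and for Cdkn1a as the paralogue of Cdkn1b that hardly differed. RefSeq windows of assembly GRCm38.p6 were matched by symbol for 6 of the 10 genes. Ccnd2, the member that differed most, had no window, nor had Ccnd1, Ccne2 and Ccna2. The 250 bases before the annotated start are printed 5′ to 3′ on the gene's strand, with CCAAT and GGGCGG, on either strand, in capitals. The windows are chr6:134920151-134920400 (+ strand) for Cdkn1b, chr7:38107491-38107740 (- strand) for Ccne1 and chr17:29093519-29093768 (+ strand) for the second annotated start of Cdkn1a.
Cdkn1b: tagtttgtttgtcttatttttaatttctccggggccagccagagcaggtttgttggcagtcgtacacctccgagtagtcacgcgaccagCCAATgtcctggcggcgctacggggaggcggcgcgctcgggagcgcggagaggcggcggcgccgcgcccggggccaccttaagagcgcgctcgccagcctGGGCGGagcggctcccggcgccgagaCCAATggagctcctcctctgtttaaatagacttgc
Ccne1: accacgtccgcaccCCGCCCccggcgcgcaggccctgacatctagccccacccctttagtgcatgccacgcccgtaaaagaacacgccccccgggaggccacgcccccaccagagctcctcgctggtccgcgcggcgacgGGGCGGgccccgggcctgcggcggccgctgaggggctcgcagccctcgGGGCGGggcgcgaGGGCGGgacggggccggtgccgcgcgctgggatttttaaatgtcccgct
Cdkn1a: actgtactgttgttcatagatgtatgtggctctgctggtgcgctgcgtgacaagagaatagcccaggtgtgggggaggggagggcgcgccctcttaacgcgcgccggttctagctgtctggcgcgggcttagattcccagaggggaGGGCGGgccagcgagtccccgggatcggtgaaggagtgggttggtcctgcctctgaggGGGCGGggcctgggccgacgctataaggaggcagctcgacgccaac

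CCAAT is the core of the box bound by the factor NF-Y, and GGGCGG is the GC box of Sp1-type factors. The Cdkn1b window held CCAAT with its first base 161 and 35 bases before the start, and GGGCGG at 61 bases before it. The Ccne1 window held no CCAAT and 4 matches to GGGCGG, with first bases 236, 110, 62 and 49 bases before the start. The Cdkn1a window held 2 matches to GGGCGG, at 104 and 46 bases, and no CCAAT. The window of the first annotated start of Cdkn1a, not printed, had 0 matches to both. Of all 32851 windows of this length, 33.8% held CCAAT and 32.7% held GGGCGG, and 12.4% held TATAAA, of which none of the 3 printed windows had a match. A match is a run of letters and was not tested as a binding site.

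Ccnd2 and Cdkn1b both lie on distal chromosome 6, in the stretch from Rad18 to Resf1 that was picked in earlier work on these arrays because its genes were higher together. Its 95 bright genes other than these 2 members had a median difference of 0.37, with 80 on the higher side in overexpressing cells, against a median of 0.02 for the 178 bright genes before it on the chromosome. Ccnd2 went the way of the median of this stretch and further. Of the 95 genes, 25 (26.3%) were at least 1.5-fold higher, and 9 were as high as Ccnd2 or higher. With the median of the stretch subtracted, Ccnd2 stood at 0.41, or 1.33-fold, no longer past 1.5-fold. Cdkn1b went against that median. Only 2 of the 95 genes were as low as Cdkn1b or lower, and 1 was at least 1.5-fold lower. With the median subtracted Cdkn1b stood at -0.86, or 1.81-fold lower, past 1.5-fold.

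The nearest bright genes differed between these members. Of the 6 around Ccnd2, 3 on each side, 4 were higher and 2 lower in the overexpressing cells, with a median of 0.36 and a range from -0.23 to 0.77. The 2 lower ones, the tetraspanin gene Tspan9 at -0.23 and Itfg2 at -0.15, were next to Ccnd2 on the distal side. Around Cdkn1b, the WNT co-receptor gene Lrp6 stood at 0.28, the phosphatase gene Dusp16 at 0.91 and Gpr19 at 0.19 on 1 side, and the helicase gene Ddx47 at 0.53, the heme-binding protein gene Hebp1 at 1.16 and Emp1 at 0.75 on the other. All 6 of these neighbours were higher in the overexpressing cells, while Cdkn1b was lower.

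**Figure D3:**
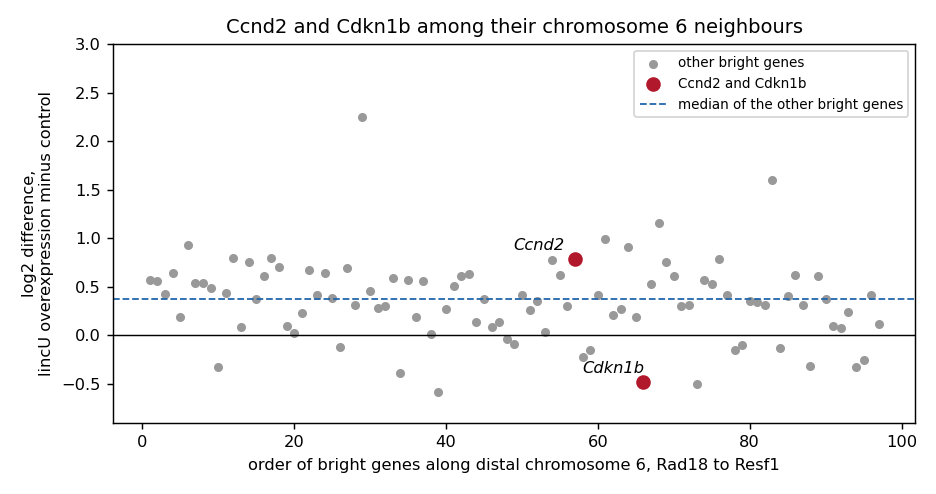
Log2 difference, lincU overexpression minus control (vertical axis), of the bright genes of distal chromosome 6 in their order from Rad18 to Resf1 (horizontal axis). Red points are Ccnd2 and Cdkn1b, grey points the other 95 genes, and the dashed line their median of 0.37. Ccnd2 lies above the line at 0.78, and Cdkn1b at -0.49 is among the lowest points.

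Genes that work with the cyclins differed little, and in these 10 lists no bright gene was past 1.5-fold in either direction, beside the 11.3% of all bright genes. Medians of lists, here and below, are over all measured genes of a list, dim ones included. Of 5 cyclin-dependent kinase genes, 4 were measured and bright, with a median of 0.04. Cdk7, the kinase that activates other CDKs, stood at 8.33 in overexpressing cells and 7.82 in control cells, a difference of 0.51. The control value lies under that array's median of 7.96, so Cdk7 was bright only through the overexpression array. The cyclin D partner Cdk4 differed by -0.07, the cyclin E and A partner Cdk2 by -0.16 and the mitotic kinase Cdk1 by 0.16. Of 16 other cyclins 12 were measured, 11 of them bright, 8 higher and 3 lower, with a median of 0.07. The largest differences among them were those of the transcriptional cyclin genes Ccnt1 at 0.46 and Ccnc at 0.39, and of Ccnf, for cyclin F, at 0.20. Ccnt1, at 8.08 in overexpressing cells and 7.62 in control cells, was also bright only through the overexpression array. Of 6 other inhibitor genes 3 were measured, and the 2 bright ones were lower, as Cdkn1a and Cdkn1b were. These were Cdkn1c, which encodes p57 of the same family, at -0.34, and Cdkn2d, for a CDK4 and CDK6 inhibitor, at -0.29. All 8 regulators of CDK activity were bright, 2 higher and 6 lower, with a median of -0.07. Among these the inhibitory kinase genes Pkmyt1 and Wee1 differed by -0.19 and -0.18, a second Wee1 probe set by 0.10, and Mnat1, for a partner of CDK7, by -0.26.

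The G1/S genes leaned to higher signals by a small amount. Of 21 targets of E2F at the G1/S boundary 18 were measured and 16 were bright, of which 14 were higher, beside 50.2% of all bright genes. Their median was 0.15, and the bright ones lay between -0.04 and 0.26. Most of these differences were below the SD of 0.23 between probe sets. The largest were those of Chaf1b, for a histone chaperone subunit, at 0.26, of the replication licensing gene Cdc6 at 0.25 and of Mcm6, for a subunit of the replicative helicase, at 0.24. Of the 14 higher genes, Gmnn stood at 0.01 and Mcm3 at 0.00, with bright Mcm3 probe sets from -0.48 to 0.16. Mcm2, Mcm7 and Rrm1 each also had a bright probe set that was lower in the overexpressing cells. The members Ccne1 and Ccne2, both lower, are not in this list. In the RB and E2F family 8 of 13 genes were measured and 6 were bright, 5 of them higher, with a median of 0.12. E2f1 stood at 0.22, the retinoblastoma gene Rb1 at 0.19 and Tfdp1, for the dimerisation partner of E2F, at -0.22. The mitotic list did not lean that way. Of 24 G2/M genes 20 were measured and 18 were bright, 6 higher and 12 lower, with a median of -0.03, which was 0.01 with the arrays centred on their medians. The kinase gene Nek2 stood at -0.47, the motor gene Kif11 at -0.26 and Cdc20, for an activator of the anaphase-promoting complex, at -0.19 with 1 of its 3 probe sets at 0.05.

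**Figure D4:**
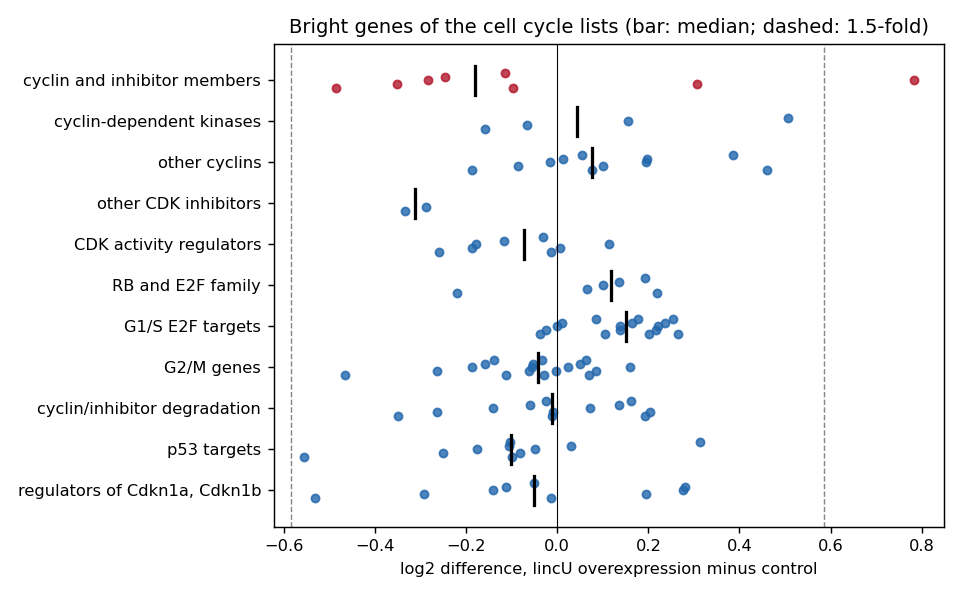
Log2 difference, lincU overexpression minus control (horizontal axis), of the bright genes in each cell cycle list (rows). A bar marks the median of the bright genes, without the dim ones that the medians in the text include, and dashed lines mark 1.5-fold. Red points are the members and blue points the genes of the other lists. Ccnd2 is the only point outside the dashed lines, and 14 of the 16 G1/S genes lie above 0.

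Other p53 targets, genes of cyclin and inhibitor degradation and transcriptional regulators of Cdkn1a and Cdkn1b were also read. Of 17 p53 targets 12 were measured and 10 were bright, 2 higher and 8 lower, with a median of -0.11. Among them the antiproliferative gene Btg2 differed by -0.56 on 1 bright probe set and by -0.05 on the other, the stress gene Sesn1 by 0.31 and the apoptosis gene Pmaip1 by -0.25. Mdm2, counted as lower, differed by -0.10 on its brightest probe set and by 0.33 on its other bright one. Most of the differences of these 10 bright genes were below the SD of 0.23 between probe sets. Of 19 genes of cyclin and inhibitor degradation 14 were measured and 12 were bright, with a median of -0.02. Skp2, whose product targets p27 for destruction, differed by -0.14, its scaffold gene Cul1 by -0.35, the anaphase-promoting complex gene Anapc11 by -0.26 and Fbxo31, for an F-box protein, by 0.20. Of 14 transcriptional regulators of Cdkn1a and Cdkn1b 11 were measured and 9 were bright, 3 higher and 6 lower, with a median of -0.05. Mycn, of the MYC family, stood at 12.32 in overexpressing cells and 12.86 in control cells, a difference of -0.53, and its other bright probe set at -0.77. Smad4, a mediator of TGF-beta family signals, differed by -0.29 and Klf4, a known activator of Cdkn1a, by 0.28. Foxo3, known to act on Cdkn1b, differed by -0.05.

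Other cell types in the cultures could carry these transcripts too, and in bulk RNA fewer cells of a type and less RNA per cell cannot be told apart. Of 16 feeder fibroblast markers 14 were measured and 11 were bright, 7 higher and 4 lower, with a median of 0.02. The log2 of their summed signal was 13.17 on the overexpression array and 13.07 on the control array, and none was at 0. Col3a1 stood at 10.27 in overexpressing cells and 10.31 in control cells. The largest difference of a bright marker was 0.69, in the receptor gene Pdgfrb, with Prrx1 at 0.29. Mmp2 stood at -0.46 on its brightest probe set and at 0.20 on its other bright one. Of 10 endoderm markers all were measured and 4 were bright, with Lama1 at 1.04, Col4a1 at 0.68 and Amn at -0.76. Lama1, Col4a1 and Amn were each bright only through their higher array. On the other array Lama1 stood at 7.46 and Col4a1 at 7.72 in control cells, and Amn at 7.23 in overexpressing cells. The remaining 6 markers were dim, and the median of all 10 was 0.01. The log2 summed signal of the 10 was 10.55 in overexpressing cells and 10.40 in control cells, with none at 0. Of 9 trophoblast markers 8 were measured and the 4 bright ones were all lower, with Cdx2 at -1.89, Krt8 at -1.43 and Krt18 at -1.25. Cdx2, at 6.76 in overexpressing cells and 8.65 in control cells, was bright only through the control array. The other 4 measured markers were dim, and the median of all 8 was -0.53. The log2 summed signal of the 8 was 11.02 in overexpressing cells and 11.98 in control cells, with none at 0. Of the stem cell markers, Esrrb differed by 0.65 on its brighter probe set and 0.17 on the other, Nanog, which lies in the same chromosome 6 stretch as Ccnd2, by 0.57, and Utf1 by -0.43, and the median of the 11 was 0.28. The part of these cell types in the differences of Ccnd2 and Cdkn1b was not tested.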

How the data were processed

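Total RNA from 1 lincU overexpression and 1 control culture was labelled with biotin and hybridised to Affymetrix 3′ arrays, per the labels' protocols. The authors deposited 1 log2 signal for each probe set and array, a scale read from the highest values of 15.26 for overexpression and 15.13 for control. Per the submitters' processing notes MAS5 and affy were used, with no role or version named. For the scaling target, no value was given in the sources used here.

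Of 16994 probe sets, 64 were array controls, 15273 had a single gene name, 501 several and 1156 none. Names came from the platform annotation, and 15252 of the named probe sets matched the RefSeq table of GRCm38.p6 by gene ID, which gave symbols, chromosome and gene order. Values were used as deposited. Signals under the 25th percentile of an array, 5.65 for overexpression and 5.73 for control, were raised to it, and a gene under it on both arrays had a difference of 0. The probe set of highest mean signal represented a gene. The rules were run on simulated arrays whose planted differences were larger than that of any member. That run does not show how differences near 1.5-fold are read.

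Named genes were all members, the 3 bright genes of each list with the largest differences, and 3 bright neighbours on each side of the members in the chromosome 6 stretch, whose values are not all reported here. Cdk4, Skp2, Foxo3, Pou5f1, Col3a1, Mdm2, Gmnn, Mcm2, Mcm3, Mcm7 and Rrm1 were named outside this rule, after their values were seen. The members, the lists and the stretch were chosen with earlier results of these arrays known. Python 3.11.15, pandas 2.3.3, numpy 2.4.6, statsmodels 0.14.6 and matplotlib 3.10.9 were used.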

Additional observations from a re-analysis of the deposited data

How the results depend on the processing

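With 1 array per group, no result has an error between cultures. No paired analysis was possible because each group has 1 array. Under the 3 other scalings and the pseudocount, which moved all 8 measured members, each kept the sign of its difference, as did the 5 members with several probe sets when these were averaged. The 2 other floors and the removal of probe sets named _s_at, _x_at or _a_at did not move any member's value. The members' median stayed between -0.19 and -0.13. With the median of the chromosome 6 stretch subtracted, Ccnd2 stood at 0.41 and Cdkn1b at -0.86, so that the 1 member past 1.5-fold was Cdkn1b in place of Ccnd2. The stretch was picked for its higher signals, so this subtraction lowers both values by construction. Under the scalings, the pseudocount and averaging Ccnd2 was past 1.5-fold. With probe sets of a gene averaged, 2 members were past 1.5-fold, Ccnd2 at 0.91 and Cdkn1b at -0.63. The Cdkn1b average takes in its dim probe set at -0.77, a bound, while its bright one stood at -0.49. At a 2-fold threshold the count of members was 0. Of 112 list medians under the alternatives, 2 moved by the SD between probe sets or more, both of the trophoblast list, whose median of -0.53 was -1.34 with no floor and -0.21 with a floor set at percentile 40. Only the floor differed in these 2 alternatives, and 4 of the 8 measured trophoblast genes were dim. Why this list was lower in the overexpressing cells was not tested. Centring on the array medians moved the median of bright genes to 0.06.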
